A study of Mus musculus with 2 samples.

Results

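The peaks described here are those that lay within 1 kb of the start of a mouse gene that has no descriptive symbol. They were taken from the annotation table of the anti-FLAG library as the rows classed as promoter within 1 kb whose gene symbol is Gm followed by a number or ends in Rik. This rule uses the position and the symbol only, and no signal value. It gave 762 peaks assigned to 643 genes, of 15282 promoter peaks (4.99%) and 99782 annotated peaks (0.764%). Symbols ending in Rik accounted for 501 peaks of 413 genes and Gm symbols for 261 peaks of 230 genes. The Gm and Rik genes also had 6135 distal intergenic, 3204 intronic and 355 exonic peaks and 321 peaks at 1 to 2 kb from a start, which are outside the rule.

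The study profiled the chromatin binding of PARIS (gene Zfp746) by CUT&Tag, in which an antibody directs the transposase Tn5 to cut DNA beside its target. CamK-PARIS mice on the C57BL/6J strain gave 2 libraries from the hippocampus, 1 made with anti-FLAG and 1 with IgG, and both antibodies therefore met the same transgenic tissue. The labels give neither the age of the mice, nor the number of mice per library, nor the promoter behind the genotype's name, and no library of mice without the transgene is among the samples. With 1 library per antibody there is no replicate error: every interval below is a 95% interval for counting error over peaks or genes, which are not replicates, and no test between conditions could be made.

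PARIS is a zinc finger protein with a KRAB domain, a type of domain that recruits corepressors, and is known as a substrate of the ubiquitin ligase parkin and as a repressor of Ppargc1a through insulin response sequences in its promoter. Gm symbols are given to gene models predicted from the genome, and Rik symbols to genes known from RIKEN full-length cDNA clones. Many of them are long noncoding RNAs, and such RNAs often start close to a coding gene and run in the opposite direction from a shared stretch of open chromatin. Promoters of widely expressed genes usually lie in CpG islands, stretches that keep their CG dinucleotides, while promoters of tissue-restricted transcripts often do not.

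Sequences that carry the findings are shown here from the GRCm38.p6 reference (mm10), 5′ to 3′. The first pair gives all bases between the starts of a Rik gene and of a named gene that leave each other in opposite directions, for the tallest such members, because 1 peak there cannot be given to either gene alone. Capitals mark the GC box (GGGCGG or its reverse complement) and CCAAT. The former lies at chr3:156561583-156561793 on the minus strand, between 4930570G19Rik and Negr1, and the latter at chr15:81190758-81190852 on the plus strand, between 4930483J18Rik and Mrtfa.
4930570G19Rik and Negr1: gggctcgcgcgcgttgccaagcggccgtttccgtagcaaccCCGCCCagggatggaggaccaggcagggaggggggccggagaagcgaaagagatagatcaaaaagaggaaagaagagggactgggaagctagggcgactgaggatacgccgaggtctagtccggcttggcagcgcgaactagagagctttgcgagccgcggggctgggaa
4930483J18Rik and Mrtfa: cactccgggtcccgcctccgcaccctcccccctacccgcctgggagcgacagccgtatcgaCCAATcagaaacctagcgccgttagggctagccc

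The next set gives 160 bases at the summit of the 3 tallest members with no named gene start within 1 kb, because they differ in base composition. Capitals mark CG dinucleotides, of which they hold 9, 1 and 5. The stretches lie on the plus strand at chr5:25529593-25529752, upstream of the start of 1700096K18Rik, at chr1:74851112-74851271, in intron 1 of Gm16582, and at chr8:120144300-120144459, upstream of the assigned start of 6430548M08Rik.
1700096K18Rik: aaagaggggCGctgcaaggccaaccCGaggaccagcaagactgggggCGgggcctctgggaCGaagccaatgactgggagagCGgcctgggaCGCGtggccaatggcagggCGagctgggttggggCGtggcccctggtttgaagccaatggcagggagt
Gm16582: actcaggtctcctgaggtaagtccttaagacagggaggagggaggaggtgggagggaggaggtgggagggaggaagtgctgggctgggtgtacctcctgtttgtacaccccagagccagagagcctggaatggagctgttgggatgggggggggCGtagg
6430548M08Rik: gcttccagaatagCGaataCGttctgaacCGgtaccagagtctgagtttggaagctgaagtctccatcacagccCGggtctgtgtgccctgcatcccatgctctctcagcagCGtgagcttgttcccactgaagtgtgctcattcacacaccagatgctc

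A set of 3 stretches of 47 bases show the insulin response sequence TATTTTT or TATTTTG in the 200 bp summit window of tall members, in capitals and on the strand of the gene, where it can read as AAAAATA or CAAAATA. The letters are inside the called peak in Gm36536 and outside it in 4931440P22Rik and Gm5069. The stretches lie at chr3:65529650-65529696 (minus strand), chr1:176527293-176527339 (minus) and chr1:180329250-180329296 (minus). In Gm5069 the letters stand in a run rich in T and occur 2 times side by side.
4931440P22Rik: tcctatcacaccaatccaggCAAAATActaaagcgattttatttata
Gm36536: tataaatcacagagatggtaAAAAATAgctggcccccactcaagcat
Gm5069: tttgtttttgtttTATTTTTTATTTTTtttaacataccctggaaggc

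Among the members were host genes of microRNAs, whose mature sequences are given from RefSeq (GRCm38.p6) with the seed, bases 2 to 8, in capitals. MiR-29b-3p and miR-29c-3p share their seed and come from the same host, A330023F24Rik.
mmu-miR-101a-3p (host E130102H24Rik): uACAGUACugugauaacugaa
mmu-miR-9-5p (host C130071C03Rik): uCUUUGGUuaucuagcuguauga
mmu-miR-29b-3p (host A330023F24Rik): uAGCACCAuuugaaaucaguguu
mmu-miR-29c-3p (host A330023F24Rik): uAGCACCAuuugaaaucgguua
mmu-miR-31-5p (host Gm49890): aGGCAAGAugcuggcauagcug

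The files of the anti-FLAG library hold 99797 called peaks and no read totals, so the depth is unknown. Each peak has the authors' maximum signal and total signal, both in coverage units. Among 23 markers of hippocampal cell types, 13 had a promoter peak: 6 of 8 of excitatory neurons, 3 of 3 of interneurons, 2 of 4 of astrocytes, 1 of 4 of oligodendrocytes and 1 of 4 of microglia. Neurod6 and Snap25 were the excitatory markers without one. By GENCODE starts, 49.5% of named protein-coding genes had a peak within 1 kb, whichever gene the peak was assigned to. That count can be looser than the one for the markers, so nothing is read from 13 of 23.

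The members were mostly, but not all, noncoding. Of the 762 assigned transcripts, 506 were long noncoding in GENCODE M21 (229 lincRNA, 131 processed transcripts, 129 antisense and 17 bidirectional-promoter RNAs). A further 230 belonged to protein-coding genes, 21 to pseudogenes and 4 to models still to be experimentally checked, and 1 was not in that annotation. For 45 members GENCODE gives the transcript's gene another symbol, and for 14 of these it is a descriptive one. Examples, chosen after their values were seen, are E430016F16Rik, which is Ntrk3 (a neurotrophin receptor) with peaks of 172 and 100, and F630111L10Rik, which is P2ry14 (a nucleotide sugar receptor) with a peak of 120. The middle of the summit region lay outside the assigned transcript in 371 members, in an intron in 236 and in an exon in 155.

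Of the 8 tallest members, 6 belonged to long noncoding RNAs, and 4 lay within 1 kb of the start of a named coding gene. The highest maximum signal, 585, belonged to 4930570G19Rik, a lincRNA whose start lies 212 bp from that of Negr1, a neuronal cell adhesion protein. Its peak (chr3:156560373-156563642) was 3270 bp wide, ranked 151 of 99782 by maximum and 4 by total signal (767929), and covered both starts, with its summit in intron 1 of the lincRNA, 691 bp from its start. Gm10244, an antisense RNA whose exon 1 overlaps an exon of the ubiquitin ligase gene Mkrn1, followed with 523 (chr6:39419848-39420660).

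The lincRNA 1700096K18Rik reached 480 (chr5:25529337-25530329) with its summit 328 bp upstream of the start and the nearest named coding start, Cct8l1, 13592 bp away. 1700120C14Rik reached 461 (chr15:99251303-99252979) at a start whose exon overlaps Mcrs1, which encodes a subunit of chromatin complexes, and had another peak of 256 at a start farther upstream. Gm16582 reached 455 (chr1:74850324-74851881), 292 bp inside the gene, at 3739 bp from the start of Cdk5r2, an activator of a neuronal kinase. The protein-coding 6430548M08Rik (known in humans as KIAA0513) followed with 431 (chr8:120144106-120145051), and its second peak, at another start, had only 45.

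These were high values for any promoter, yet none approached the tallest promoter peak of another gene, 1478. That peak is the highest of 14520, against 762 members, and the highest of a larger set tends to be higher. 4930483J18Rik had 387 (chr15:81190772-81191349) at a start 96 bp from that of Mrtfa, a coactivator of serum response factor. 2610524H06Rik, which GENCODE lists as 1500011B03Rik, had 375 (chr5:114823526-114824563), 805 bp upstream of its start. Gm30539, at 372 (chr10:126957418-126958146), completed the 5 tallest members with no named start within 1 kb.

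By total signal, 3 other members joined 4930570G19Rik and Gm16582 (254014) at the top. 0610010K14Rik, which encodes the chromatin-associated protein known as BAP18, had a total of 260040 and a maximum of 341 (chr11:70236870-70238453), with the summit on exon 1. The lincRNA A630001O12Rik had 248291 (chr8:126838818-126840484), with the nearest named coding start, that of Tomm20, 106237 bp away. 1700092K14Rik had 246576 (chr11:114197795-114199037), 131336 bp from Sdk2. Large peaks of Gm and Rik genes were thus found close to coding starts and far from them.

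Peak by peak, the members had a median height and width close to those of other promoter peaks. Their maximum signal ranged from 7 to 585 with a median of 113 (quartiles 72 and 161), against 116 (78 and 172) for the 14520 promoter peaks of other genes and 101 (66 and 135) for all annotated peaks. Their median width was 485.5 bp against 483 bp, and their median total signal 31814 against 33265. The top 10% of all annotated peaks by maximum signal (189 or more, 10.1% with ties) held 140 members, or 18.4% (15.8 to 21.3), and 21.4% of the other promoter peaks. The difference was -2.99 points (-5.67 to -0.0112), so its interval barely left out 0. Within protein-coding genes the shares were 15.7% and 21.5%, a difference of -5.80 points (-9.98 to -0.501). Within long noncoding genes they were 19.8% and 23.7%, a difference of -3.96 points (-11.9 to 3.08). With the tallest peak of each gene only, the gap was wider, at 21.2% of Gm and Rik genes and 29.8% of other genes. Other genes had more promoter peaks per gene (14520 peaks of 9451 genes, against 762 of 643). The tallest of more peaks tends to be higher by selection, and the share of the gap due to this was not tested. By total signal, where the background is 10%, 166 members (21.8%) were in the top 10% and the difference of -1.82 points (-4.70 to 1.32) spanned 0. Above the median of all peaks by maximum signal (49.8% of them) lay 438 members, or 57.5%, against 60.4% of the others.

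**Figure D1:**
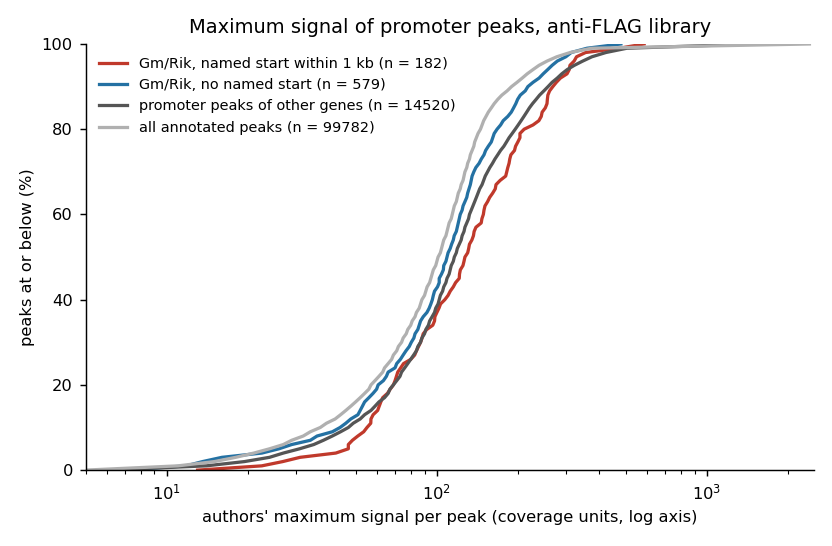
Cumulative share of peaks (%) against the authors' maximum signal per peak (coverage units, log axis) for Gm and Rik promoter peaks with (red) and without (blue) a named gene start within 1 kb, promoter peaks of other genes (dark grey) and all annotated peaks (light grey). The median is 127 in the red curve, 109 in the blue, 116 in the dark grey and 101 in the light grey.

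Nearly as many members were rectangles as not. Dividing total signal by width and by maximum signal gives 1 where coverage is the same at every base, and 367 members (48.2%, 44.6 to 51.7) had a ratio of at least 0.99. The share was 44.3% of the other promoter peaks and 63.3% of all annotated peaks, and the difference between members and other promoter peaks was 3.87 points (0.251 to 7.51). Within class the intervals included 0, with 1.14 points (-5.21 to 7.65) for protein-coding and 5.37 points (-3.59 to 14.1) for long noncoding genes. Taking the tallest peak of each gene, the shares were 46.3% of 643 Gm and Rik genes and 36.4% of 9451 other genes. The other genes had more promoter peaks each to take the tallest from, and what this adds to the gap was not tested. Constant-height members had a median maximum of 89 and none above 167, while the 395 members of varying height had a median of 156 and held all 140 members of the top 10%. The threshold of the top 10%, 189, lies above the range of the constant-height members. All 10 tallest members were of varying height, with ratios from 0.282 to 0.539 (1700120C14Rik and 1700092K14Rik).

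Many members lay beside the start of a named gene. Of the 761 members on assembled chromosomes, 182 (23.9%, 21.02 to 27.07) had a named start within 1 kb of the summit region. A named start is that of another gene whose symbol is neither Gm nor Rik, and 2 of the neighbours have clone names. The gene of the assigned transcript was left out, also in the 14 members for which GENCODE gives it a descriptive symbol. Those count as having no named start unless a second named gene starts nearby. Among the other promoter peaks 8.55% had the start of a second named gene that close, and 9.32% of all promoter peaks did. The difference was 15.4 points (12.4 to 18.5). Most of the other promoter peaks are at protein-coding genes, and within class the picture changed. Long noncoding members had a named start in 28.3%, against 31.4% of the 156 long noncoding promoter peaks with other symbols, a difference of -3.15 points (-11.7 to 4.75). Protein-coding members had one in 14.4% against 8.05%, a difference of 6.36 points (2.37 to 11.5). The named neighbour was protein-coding for 176 of the 182, and 173 different genes served as neighbours. In these members the signal at the Gm or Rik start and at the named start cannot be told apart by the assignment.

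Most of these neighbours ran in opposite directions. There were 114 head-to-head pairs and 7 pairs on the same strand. In the other 61 pairs, on opposite strands, the named start lay downstream of the assigned start. The starts of the head-to-head pairs were a median of 146 bp apart (quartiles 86.25 and 243.25), with 91 pairs at most 300 bp and 33 at most 100 bp apart. A single peak covered both starts in 57 of the 114. The middle of the summit region lay on the side of the Gm or Rik gene in 73 pairs, between the starts in 38 and on the side of the named gene in 3. That order follows the assignment of a peak to its nearest start, which gives peaks on the other side to the named gene. The named start was nearer than the assigned one in 2 members, chosen here after their values were seen: 4930579G24Rik beside Etfdh (maximum 87) and 2210408F21Rik beside Lncpint (83).

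**Figure D2:**
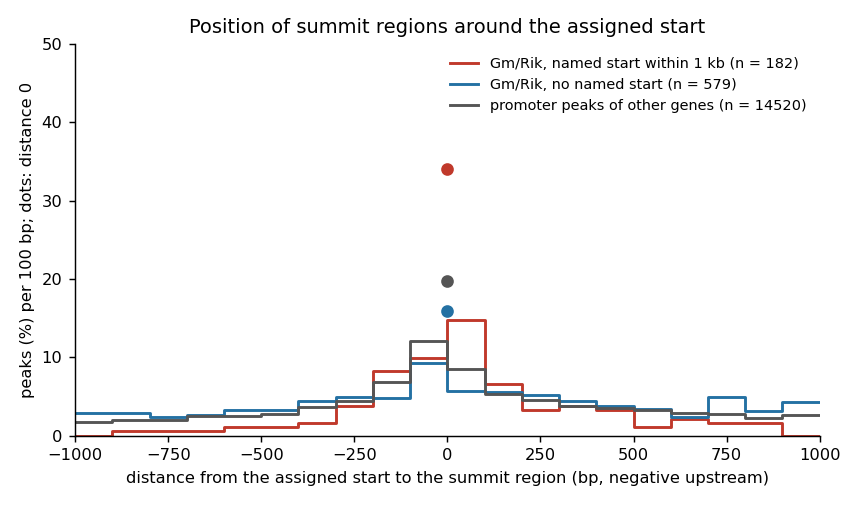
Share of peaks (%) per 100 bp of signed distance from the assigned start to the summit region (bp, negative upstream), with dots for summit regions that cover the start, for Gm and Rik members with and without a named start within 1 kb and for promoter peaks of other genes. The dots stand at 34.1% for members with a named start and 15.9% for those without.

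Members with a named start within 1 kb and those without differed in height, shape and composition. The former had a median maximum signal of 127, a median total of 43121.5 and a median width of 559 bp, against 109, 29639 and 463 bp for the latter. They were in the top 10% by maximum in 25.8% against 16.1%, a difference of 9.76 points (3.12 to 17.1). By total signal the shares were 33.0% and 18.3%, a difference of 14.7 points (7.42 to 22.4). Constant height was less common among them, at 39.0% against 50.9%, a difference of -11.9 points (-19.8 to -3.63). Their summit region covered the assigned start in 34.1% against 15.9%.

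The same contrast was seen within the long noncoding members alone. The 143 that had a named start had a median maximum of 134, against 106 for the 363 that had none. Constant height was found in 35.7% and 55.1%, a difference of -19.4 points (-28.4 to -9.81), and the top 10% held 28.7% and 16.3%, a difference of 12.4 points (4.47 to 21.03). The 33 protein-coding members with a named start and the 196 without had medians of 92 and 111, and the differences in constant height (7.64 points, -10.1 to 24.99) and in the top 10% (-0.665 points, -10.9 to 15.7) had intervals that included 0 and were wide. Whether the contrast differed between the noncoding and the coding members was not tested.

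Members without a named start also differed from other promoter peaks without a second start. Constant height was found in 50.9% against 45.1%, a difference of 5.90 points (1.75 to 10.04), and the top 10% by maximum held 16.1% against 20.7%. Members with a named start resembled other promoter peaks with a second start in median maximum signal (127 against 129), and the intervals of the differences in constant height and in the top 10% included 0. For the members with no named start, the nearest start of another named protein-coding gene was a median of 26053 bp away (quartiles 9583.5 and 69565.5). The gene of the assigned transcript was left out here too.

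**Figure D3:**
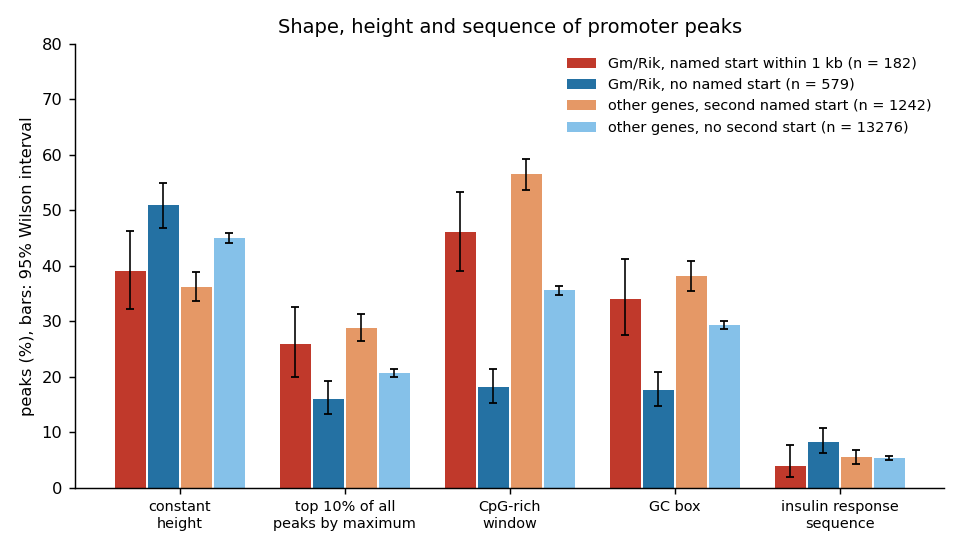
Share of peaks (%, bars with 95% Wilson intervals) of constant height, in the top 10% of all peaks by maximum signal, with a CpG-rich summit window, with a GC box and with the insulin response sequence, for Gm and Rik members and promoter peaks of other genes, each split by whether a further named start lay within 1 kb. CpG-rich windows range from 18.1% in Gm and Rik members with no named start to 56.5% in other promoter peaks with a second start.

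The summits of the members were poorer in GC and CG dinucleotides than those of other promoter peaks. In 200 bp windows centred on the summit region the median GC content was 54% against 57%, and the median ratio of observed to expected CG dinucleotides 0.369 against 0.476. Windows with at least 50% GC and a ratio of at least 0.6, called CpG-rich here, made up 24.8% of the members (189) and 37.4% of the other promoter peaks, a difference of -12.5 points (-15.6 to -9.25). Over all promoter peaks the share was 36.7%. Within class the differences were smaller and their intervals included 0: protein-coding members had 32.3% against 37.9% (-5.62 points, -11.4 to 0.741) and long noncoding members 22.1% against 28.2% (-6.07 points, -14.3 to 1.44). In other splits the intervals left out 0. The difference was -17.4 points (-20.5 to -14.0) between peaks with no second named start and -10.4 points (-18.0 to -2.61) between peaks with one. Between peaks of varying height it was -14.8 points (-19.5 to -9.91).

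Position and neighbours split the members in this respect. CpG-rich windows were found in 46.2% of the members with a named start and in 18.1% of those without, a difference of 28.0 points (20.2 to 35.8). Members whose summit covered the start had them in 46.1%, against 20.8% upstream and 18.2% downstream of it. Among varying-height members 34.4% were CpG-rich and among constant-height members 14.5%. Rik members were CpG-rich in 29.5% and Gm members in 15.8%, a difference of 13.8 points (7.54 to 19.5).

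The tallest members had summits of very different composition. Gm10244 (523) had a GC content of 68% and a CG ratio of 0.877 in its summit window. 0610010K14Rik (341) had 76% and 0.873. Gm16582 (455) had 61% GC but a ratio of 0.0646, and only 1 CG stands in the 160 bases printed for it. 1700092K14Rik (368) had 61.5% GC and a ratio of 0.218. Tall members thus occurred with and without CG dinucleotides at the summit.

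**Figure D4:**
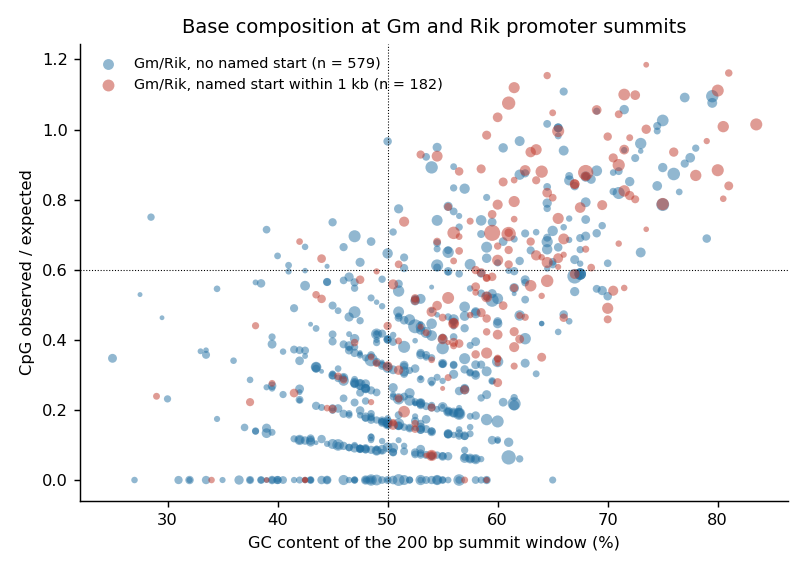
Ratio of observed to expected CG dinucleotides against GC content (%) in the 200 bp summit window of each Gm or Rik member, in red with and in blue without a named start within 1 kb, with the area of a point growing with maximum signal. Dotted lines mark 50% GC and a ratio of 0.6, and the upper right field holds 46.2% of the red and 18.1% of the blue points.

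The insulin response sequence stood in the summit window of 55 of 761 members, or 7.23% (5.59 to 9.29), against 5.30% of the other promoter peaks and 5.40% of all promoter peaks. The search took TATTTTT and TATTTTG on either strand of the 200 bp window, and the difference was 1.92 points (0.248 to 4.02). In 47 of the 55 the letters lay inside the called peak, as they did in 703 of 770 windows of the other promoter peaks. The members with no named start held it in 8.29%, against 5.29% of the other peaks with no second start, a difference of 3.002 points (0.983 to 5.56). In the members with a named start the share was 3.85%, against 5.48% of other peaks with a second start (-1.63 points, -4.05 to 2.41). Within class the excess did not hold beyond counting error: it was 4.37% against 5.27% for protein-coding (-0.906 points, -2.92 to 2.60) and 8.10% against 5.13% for long noncoding genes (2.97 points, -2.13 to 6.66). Among peaks of varying height the shares were 4.05% and 3.70% (0.353 points, -1.25 to 2.81).

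The letters were more common in constant-height members and upstream of the start. They occurred in 10.7% of constant-height members and 4.05% of those of varying height, a split also seen in other promoter peaks (7.32% and 3.70%). They occurred in 11.5% of members with the summit upstream of the start against 3.25% where it covered the start. The tallest member that held them, 4931440P22Rik, a transcribed pseudogene, had a maximum of 309 in a peak of 88 bp (chr3:65529696-65529783), and the letters lay 20 bp outside that peak. In the lincRNA Gm36536 (213, chr1:176526738-176527759) and in the protein-coding Gm11733 (176, chr11:117483860-117484871) they lay inside it. Gm5069 (155, a pseudogene) and 3110039M20Rik (147, a lincRNA) had peaks of 75 and 61 bp, with the letters 51 and 12 bp outside.

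Other promoter motifs were searched on both strands of the same windows, and no letters of 1 motif contain another. The GC box GGGCGG was found in 21.6% of members and 30.1% of other promoter peaks, a difference of -8.52 points (-11.4 to -5.37). CCAAT was found in 24.97% and 20.9%, a difference of 4.08 points (1.06 to 7.34). Among protein-coding genes the GC box stood at 24.5% of members and 30.5% of peaks with other symbols (-6.03 points, -11.2 to -0.0247). CCAAT stood there at 25.3% and 20.8% (4.56 points, -0.679 to 10.6). Within long noncoding genes the GC box stood at 20.6% of members and 17.9% of peaks with other symbols, the opposite direction (2.60 points, -4.92 to 9.03), and CCAAT at 25.5% and 25% (0.494 points, -7.68 to 7.81). The E-box CACGTG (5.39% and 4.64%), the cyclic AMP response element TGACGTCA (0.526% and 0.854%) and the NRF1 consensus (0.394% and 0.358%) had differences whose intervals included 0. The 4 members with the cyclic AMP element included 0610010K14Rik and A630001O12Rik, beside 9430091E24Rik (maximum 185) and 4930455G09Rik (102), and the 3 with the NRF1 consensus were 1600020E01Rik (269), 2310057M21Rik (203) and Gm6787 (110), all named after their values were seen. A match describes the letters in the window and does not show binding.

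Summits covered the assigned start in 154 members (20.2%), lay upstream of it in 288 (37.8%) and downstream in 320 (42.0%). The differences from other promoter peaks in these shares had intervals that included 0. Rik members covered the start more often than Gm members, in 22.8% against 15.3%, a difference of 7.43 points (1.46 to 12.9). Just inside the limit of 1 kb were A930004D18Rik at 999 bp (maximum 96), Gm14137 at -998 bp (109) and 4833411C07Rik at 997 bp (74), and just outside Gm33727 at -1005 bp (134), 1500009L16Rik at -1011 bp (36) and 4930505K13Rik at 1017 bp (35).

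Counted over genes, a peak at the start was less common for Gm and Rik genes than for others, and the gap depended on the class of gene. Of 29745 Gm and Rik genes in GENCODE M21, 3944 (13.3%, 12.9 to 13.6) had a summit region within 1 kb of a start, against 10653 of 25668 other genes (41.5%), and 26.3% of all genes. For protein-coding genes the shares were 19.98% (417 of 2087) and 49.5%. For long noncoding genes they were 23.5% (2107 of 8978) and 28.7% (338 of 1177), and for pseudogenes 4.996% and 6.25%. A gene was counted if any of its annotated starts had a summit region that close. Genes with more starts thus have more chances, and what this adds to the gaps was not tested.

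The share also differed between Gm and Rik genes beside a coding start and the rest. This count ignores the assignment, so a peak near both starts counts for both genes. How much of the share beside coding starts comes from this was not tested. Of the long noncoding ones that start within 1 kb of a named protein-coding start, 857 of 1685 (50.9%, 48.5 to 53.2) had a peak, and of the rest 1250 of 7293 (17.1%, 16.3 to 18.02). The deposited table assigned a promoter peak to 628 (15.9%) of the 3944 genes and not to the other 3316. A peak at the start of a Gm or Rik gene was therefore often listed under another gene or class, and the members are a part of such starts.

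**Figure D5:**
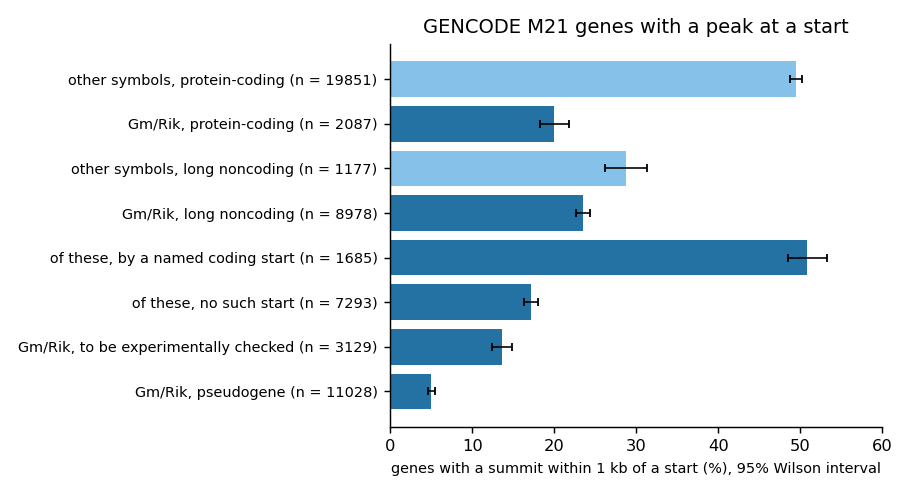
Share of GENCODE M21 genes (%, bars with 95% Wilson intervals) with a summit region within 1 kb of any of their starts, by class, for Gm and Rik genes (dark) and genes with other symbols (light). Gm and Rik long noncoding genes reach 50.9% beside a named coding start and 17.1% elsewhere, and other protein-coding genes 49.5%. A peak near both starts counts for both genes, so the 50.9% and the 49.5% are not independent.

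Host genes of microRNAs formed a small group whose peaks ran from tall to among the lowest. There were 8 member genes that contain an annotated microRNA on their own strand. In 1 of the 8 the microRNA lies upstream of the start with the peak, at -111628 bp. A transcript from that start does not contain it. E130102H24Rik, the host of Mir101a, had the tallest peak at 327 (chr4:101355589-101356573), 114 bp upstream of the start, and that start is 9221 bp upstream of the microRNA. 5031439G07Rik, a protein-coding gene that holds Mir1249, had 310 at 1 start (chr15:84960448-84961245) and 98 at another. C130071C03Rik, the brain lincRNA known as Linc00461 and host of Mir9-2, had peaks of 200, 192 and 114 at separate starts (chr13:83721222-83722276, chr13:83726792-83728687 and chr13:83732536-83732900), and the microRNA lies 17433 bp downstream of the first. MiR-9 is known for its role in neural progenitors.

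Lower hosts followed. Gm49890, which contains Mir31, had 171 (chr4:88937975-88938480), and 3110082I17Rik, a protein-coding gene with Mir339, had 164 in a constant-height peak of 103 bp (chr5:139460525-139460627). A330023F24Rik, the host of Mir29b-2 and Mir29c, whose microRNAs are known to rise as neurons mature, had 52 (chr1:195023795-195024203) and 26 (chr1:194976204-194977051). These values lie below the lower quartile of the members, 72.

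Of 10 Gm and Rik genes listed for their known background, 3 had a promoter peak: C130071C03Rik, A330023F24Rik and 6330403K07Rik, a protein-coding gene with a maximum of 197 (chr11:71033553-71034008) at -66 bp from its start. The other 7 had no assigned peak of any class under those symbols: 1700016P03Rik, the protein-coding 1500015O10Rik, 2010300C02Rik and 1110008P14Rik, 3110035E14Rik, and the noncoding Gm42418 and Gm26917. A gene that the table lists under a newer symbol would not be counted. By GENCODE starts, 13.3% of all Gm and Rik genes had a peak within 1 kb, a looser count than that of assigned promoter peaks. Of those 3944 genes, among 29745 in all, 628 were assigned a promoter peak. The 10 genes were listed for their known background, so nothing is read from 3 of 10.

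Most genes had a single member peak (546 of 643), 81 had 2, 12 had 3, 2 had 4 and 2 had 5. Gm10432, a noncoding gene, had 5 (the tallest at chr12:100290764-100291695), with maxima of 189, 175, 126, 117 and 101 at 3 transcript starts. 2900026A02Rik, protein-coding and known in humans as KIAA1671, had 220, 150, 124, 84 and 83. A830082K12Rik, the antisense neighbour of the nuclear receptor gene Nr2f1, had 310, 165, 86 and 79, and it was the peak of 165 at the pair of starts, which are 87 bp apart. 1110004F10Rik, which encodes a small acidic protein, had 171, 159, 137 and 96. Within each of these genes the peaks differed in height, and 2 each of Gm10432 and 2900026A02Rik and 1 each of A830082K12Rik and 1110004F10Rik were of constant height.

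Gm20878, which had the highest summed total signal of the 12 genes with 3 member peaks, had peaks whose summits could not be told apart by sequence. They stood at chr4:41941109-41942914, chr4:42438416-42440255 and chr4:42293305-42295144, with maxima of 284, 280 and 271, and their total signals summed to 567827. The 200 bases around the summit were the same in all copies (200 of 200 bases), so reads within them fit each copy equally. GENCODE gives the copies the names Gm20878, Gm21586 and Gm21953. The shared stretch is shown once, from chr4:41942157-41942356 on the plus strand, because it is the reason the 3 values cannot be separated.
Gm20878, all copies: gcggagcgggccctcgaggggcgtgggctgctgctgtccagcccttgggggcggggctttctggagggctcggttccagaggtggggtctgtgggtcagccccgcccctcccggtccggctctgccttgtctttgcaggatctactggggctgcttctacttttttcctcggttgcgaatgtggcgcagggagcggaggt

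Copies of this kind were more common among the members than among other promoter peaks. No unique 32-base word was found among 6 taken from the summit window in 18 members, or 2.37%, against 0.579% of other promoter peaks and 0.668% of all promoter peaks, a difference of 1.79 points (0.912 to 3.13). The share was 5.0% of Gm and 0.998% of Rik members. Protein-coding members held 15 of the 18, and long noncoding members the other 3. The peaks of those 18 ranged in maximum from 14 to 284, with Gm20878 the tallest. How the authors' alignment placed reads from such copies is not given in the sources used here.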

How the data were processed

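The authors' steps, per the labels' protocols, were trimming, alignment with Bowtie2 to the mouse build mm10, removal of duplicates and of reads of low quality, and peak calling with SEACR, which took the IgG library as control. Versions and the SEACR mode are not given in the sources used here. The deposited peak list gives each peak's total and maximum signal (coverage units, whole numbers), and the deposited annotation table gives its gene and the distance of its summit region from a start. The tool and transcript set behind that table are not given in the sources used here. Columns of per-sample values left unused numbered 0, and depth is unknown.

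Gene starts, classes and exons came from GENCODE M21 and sequence from GRCm38.p6. Computed were total signal divided by width and maximum (constant height at 0.99 or more), named starts within 1 kb of the summit region, GC content, CG ratio and motifs in 200 bp windows, and copies of 32-base words, with Python 3.11.15, pandas 2.3.3, NumPy 2.4.6, SciPy 1.17.1 and pysam 0.24.0. The scripts were tested on simulated data. Shares have Wilson and differences of shares Newcombe 95% intervals, with no p-value.

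Named are the genes of the 8 tallest members, the 5 with the highest total signal, the 5 tallest with no named start and the 5 tallest with the insulin response sequence, the 5 genes with the most member peaks (ties by summed total signal), 10 genes with known background, the 5 tallest microRNA hosts, and the peaks at the 1 kb limit. The members, lists and measures were chosen with earlier results of these data known. Alternatives covered peak height, width, distance, 1 peak per gene, named starts, constant height, the ratio, the ranking and the window.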

Additional observations from a re-analysis of the deposited data

How the results depend on the processing

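No paired analysis was possible because each antibody has 1 library and the results come from no test, and leaving out a replicate was not possible either. Under the other settings, 20 recomputed values stayed within the counting interval, or within 1.5 times the count, and 24 moved. With only peaks above the median maximum signal, 438 members remained, of which 33.3% had constant height, and the median GC content was 55.5%, the insulin response sequence share 5.25% and the share of Gm and Rik genes with a peak 7.74%. With only peaks at least 200 bp wide, constant height fell to 37.2%, the top 10% share was 23.0% and the gene share 10.7%. With summits within 500 bp of the start, these were 44.6%, 21.8% and 9.27%, named starts stood beside 29.7% and the median GC content was 55.75%. Without constant-height peaks, 395 members remained, 35.4% of them in the top 10%, 28.1% with a named start, with 56.5% GC, 4.05% with the insulin response sequence and a gene share of 6.80%. Ranked by total signal, 21.8% were in the top 10%. Named starts within 500 bp stood beside 16.8% and within 2 kb beside 30.5%. Members with no named start had 52.5% GC. A 400 bp window held the insulin response sequence in 14.2%. Promoter peaks of other genes, or other genes for the gene share, moved in the same direction in each of these values. Their constant-height share was 28.5% above the median maximum signal, 34.0% at 200 bp or wider and 40.7% with summits within 500 bp. Their top 10% share was 25.6% at 200 bp or wider, 23.7% within 500 bp and 38.3% without constant-height peaks. Named starts within 500 bp stood beside 5.78% of them and within 2 kb beside 11.6%. Wider limits and windows take in more sequence by construction, and the cause of the other shifts was not tested. The missing replicates, the unknown depth and the IgG track, which was not analysed here, limit every value.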
